A study of Mus musculus with 6 samples.

Results

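The genes described here are 10 cytokine receptor genes of mouse CD4+ T cells other than the IL-2 receptor chains: Il6ra, Il27ra, Il10ra, Ifngr1, Il21r, Il9r, Il15ra, Il17ra, Il18r1 and Il18rap. They were chosen by name from the 55401 entries of the deposited table, and all 10 were found. Each had a mean of 10 or more across the libraries and so passed the filter on low values. The table holds RNA-seq of CD4+ T cells from the spleen of naive wild-type C57BL/6 mice, labelled with the division dye CFSE. All cells were stimulated for 48 h through CD3 and CD28 in RPMI medium with 200 U of IL-2. In 3 libraries the medium held 5 mM itaconate, a dicarboxylate made by activated macrophages, and in 3 control libraries it held 5 mM NaCl. The control columns carry the code NAC, which was read as NaCl, the only other treatment in the labels. Whether each library is its own mouse or culture is not stated in the labels; p-values therefore measure spread among these libraries alone, and that spread may be technical.

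Cytokine receptors let a helper T cell read its surroundings: binding of the ligand brings receptor chains together, and kinases or adaptors on their inner side carry the signal to the nucleus. The receptors for IL-6, IL-27, IL-9, IL-15 and IL-21 (type I) and those for IL-10 and interferon gamma (type II) use JAK kinases and STAT transcription factors. The IL-18 receptor belongs to the IL-1 receptor family and signals through MyD88, and the IL-17 receptor uses the adaptor Act1. Most of these receptors pair a private chain, which decides what is bound, with a chain shared between several cytokines, such as gp130 (Il6st) or the common gamma chain (Il2rg).

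The promoters of the receptor genes with the largest rise and the largest fall are shown first, with that of Il18rap, which lies next to Il18r1. Each window runs from 250 bases before to 50 bases after a RefSeq start (GRCm38.p6), 5′ to 3′ on the strand of the gene. Capitals mark matches to the motifs searched. The windows are chr1:40465302-40465601 and chr1:40465756-40466055 for the starts 1 and 3 of Il18r1, chr1:40515112-40515411 for Il18rap (all on the plus strand) and chr11:32200230-32200529 for Il9r (minus strand).
Il18r1, start 1: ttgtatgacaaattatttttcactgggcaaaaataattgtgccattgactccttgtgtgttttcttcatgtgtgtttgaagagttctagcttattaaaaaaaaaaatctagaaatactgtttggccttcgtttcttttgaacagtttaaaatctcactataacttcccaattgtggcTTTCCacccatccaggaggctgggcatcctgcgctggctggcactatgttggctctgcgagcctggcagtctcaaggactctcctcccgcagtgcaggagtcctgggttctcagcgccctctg
Il18r1, start 3: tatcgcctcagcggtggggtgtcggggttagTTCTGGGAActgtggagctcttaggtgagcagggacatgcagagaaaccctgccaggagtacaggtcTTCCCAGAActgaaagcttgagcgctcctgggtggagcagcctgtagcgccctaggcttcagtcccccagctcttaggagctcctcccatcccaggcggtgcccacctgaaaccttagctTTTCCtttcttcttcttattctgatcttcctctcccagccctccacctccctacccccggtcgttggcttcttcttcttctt
Il18rap: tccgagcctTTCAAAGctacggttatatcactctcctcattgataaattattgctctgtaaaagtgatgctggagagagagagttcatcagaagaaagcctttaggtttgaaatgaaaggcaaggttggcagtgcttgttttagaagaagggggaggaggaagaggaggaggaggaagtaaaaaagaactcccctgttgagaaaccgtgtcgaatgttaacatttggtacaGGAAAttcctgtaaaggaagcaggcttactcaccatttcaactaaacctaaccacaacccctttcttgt
Il9r: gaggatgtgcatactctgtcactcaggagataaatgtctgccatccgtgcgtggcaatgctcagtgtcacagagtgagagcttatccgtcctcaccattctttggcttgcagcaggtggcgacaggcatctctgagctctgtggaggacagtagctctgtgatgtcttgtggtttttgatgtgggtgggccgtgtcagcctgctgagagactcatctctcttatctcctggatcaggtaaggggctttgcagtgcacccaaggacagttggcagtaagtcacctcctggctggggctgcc

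The search covered both strands for TTCNNNGAA (STAT), TGANTCA (AP-1), ACGTG (the core of the hypoxia response element), GGAAA (the core of NFAT sites) and CTTTGAA (TCF and LEF). The STAT letters occurred only at start 3 of Il18r1, at 219 and 152 bases before it, among the 10 windows of the 7 receptor genes with an entry. They occur in 8.3% of 32851 mouse promoter windows of that length. The Il18rap window held the TCF and LEF letters 241 bases before its start (5.14% of all windows) and the NFAT core 19 bases before it (61.3% of all windows). The Il9r window held none of the 5 motifs. AP-1 letters were found at start 2 of Il15ra, 30 bases before it (7.81% of all windows), with the TCF and LEF letters 203 bases before it, and the letters ACGTG in the Il6ra window (19.6%), on both strands of a palindrome. These matches are descriptions of the sequence; binding was not measured. Il27ra, Il10ra and Il17ra were not among the promoter entries used.

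With itaconate, 3 of the 10 receptor genes rose, 4 fell and 3 did not pass the test. Il18r1, Il17ra and Ifngr1 were higher, and Il10ra, Il21r, Il9r and Il15ra were lower, with adjusted p-values (Benjamini-Hochberg) below the threshold of 0.05 in limma. Of all 13180 tested entries 36.0% passed, 18.2% higher and 17.8% lower. The median log2 difference of the 10 genes was −0.17, against −0.00088 over all tested entries. For 8 of the 10 genes the values of the groups did not overlap, 4 higher and 4 lower, where this held for 48.4% of all tested entries (24.2% in each direction). In bulk RNA, fewer cells carrying a receptor and less RNA per cell cannot be told apart.

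**Figure D1:**
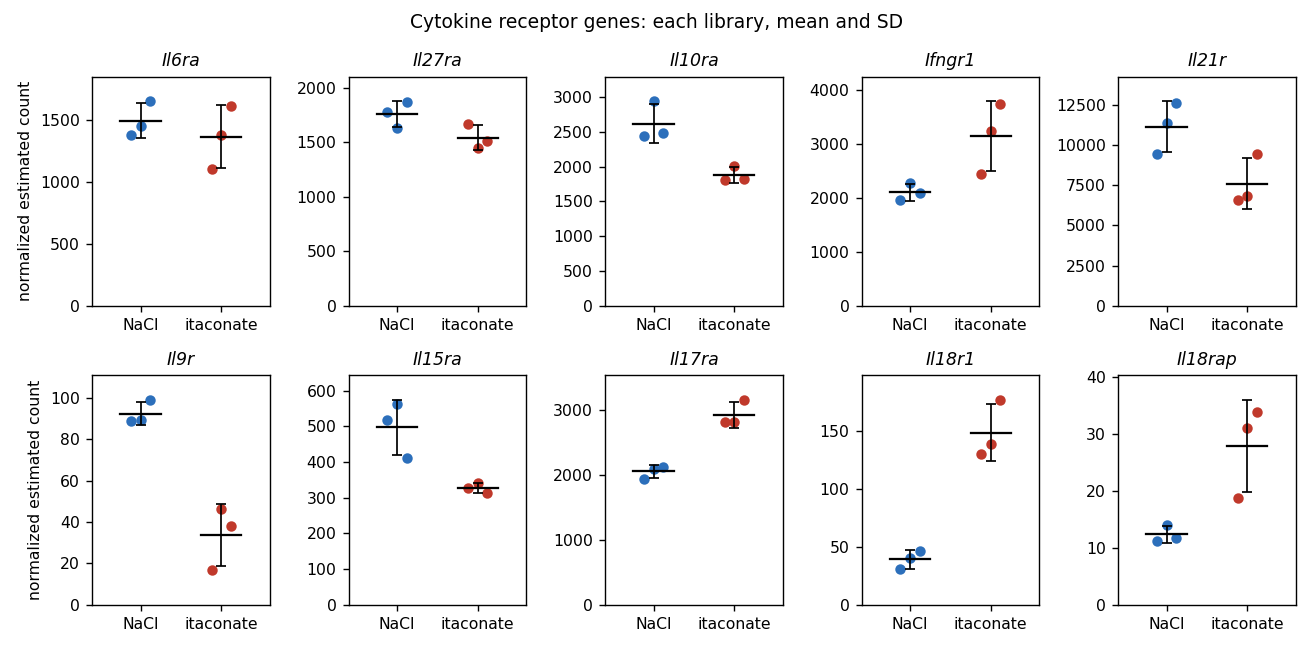
Normalized estimated count of each receptor gene (vertical axes, linear, from 0) in the 3 NaCl and 3 itaconate libraries. Points are libraries, the horizontal line is the mean and the bar 1 SD. Only for Il6ra and Il27ra do the groups overlap.

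The IL-18 receptor showed the largest rise. Il18r1 encodes the chain that binds IL-18, and is known as a marker of Th1 cells and other cells that make interferon gamma. Its normalized estimated count was 30.6, 40.2 and 46.3 in the NaCl libraries and 130.0, 139 and 177 with itaconate. Every itaconate library lay above every control. The mean went from 39.0 ± 7.91 to 148 ± 24.8 (SD, n = 3), a 3.75-fold rise on the log2(value + 1) scale of the fit (log2 difference 1.91 ± 0.27 SE, limma adjusted p = 1.82e-04). These values rest on 30 to 172 estimated reads per library.

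Il18rap, the accessory chain needed for IL-18 signalling, was the least abundant of the 10 genes per length. Its counts were 11.2, 14.1 and 11.8 in NaCl and 18.7, 31.2 and 33.9 with itaconate. The groups did not overlap, but the difference did not pass the test (log2 difference 1.08 ± 0.48 SE, 95% interval 0.04 to 2.11 before adjustment, limma adjusted p = 0.0971). Its libraries held only 11 to 33 estimated reads. With limma's variances fitted without an intensity trend it passed (adjusted p = 0.0246), and over all alternatives its adjusted p ran from 0.0246 to 0.235. The log2 ratio of Il18r1 to Il18rap was 1.57 ± 0.28 in NaCl and 2.40 ± 0.31 with itaconate (SD, n = 3), not corrected for length. The difference between the groups, 0.83 ± 0.24 SE, had an exact two-sided permutation p of 0.1, the smallest that 3 against 3 libraries allow.

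Both IL-18 receptor genes lie at the end of a row of 6 IL-1 family receptor genes on chromosome 1, in the order Il1r2, Il1r1, Il1rl2, Il1rl1, Il18r1, Il18rap. Il18r1 spans chr1:40465552-40500854 and Il18rap chr1:40515362-40551705, both on the plus strand (mm10). The rest of the row did not rise. Il1r2, a decoy receptor for IL-1, was at 161, 248 and 237 in NaCl and 73.0, 117 and 88.3 with itaconate, and fell (log2 difference −1.21 ± 0.24 SE, limma adjusted p = 0.0021). Il1rl2, the IL-36 receptor gene, fell by 0.95 ± 0.27 on the log2 scale (limma adjusted p = 0.0151), a call that ended without itaconate replicate 2 (0.0524) or NaCl replicate 2 (0.0746). Il1rl1, the IL-33 receptor chain gene next to Il18r1, did not pass (−0.20 ± 0.30, 95% interval −0.85 to 0.46), nor did Il1r1, the IL-1 receptor gene (−0.16 ± 0.73, 95% interval −1.73 to 1.41).

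**Figure D2:**
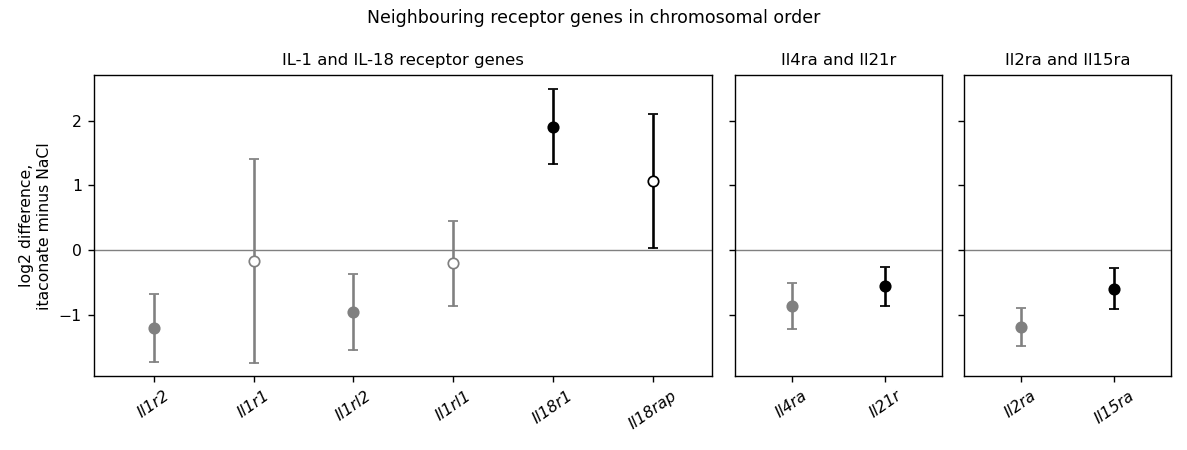
Log2 difference, itaconate minus NaCl (vertical axis), with its 95% interval, for receptor genes that neighbour each other, in chromosomal order and not to scale. Black marks the described genes, grey their neighbours, and filled points passed the test. In the row of IL-1 family genes Il18r1 is at 1.91 and Il1r2 at −1.21, while Il4ra with Il21r and Il2ra with Il15ra are all below 0.

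Of the IL-18 system, the ligand gene Il18 was at 0 to 4.11 in all libraries, under the filter. Il18bp, the secreted decoy for IL-18, did not pass (−0.26 ± 0.28 SE), and Sigirr, which dampens IL-1 family receptors, fell from 4439.9 ± 583 to 2687 ± 387 (SD, n = 3; log2 difference −0.73 ± 0.12 SE, limma adjusted p = 5.17e-04). Among 10 genes of the MyD88 and Act1 adaptor pathways, 1 rose and 3 fell, near the 36.0% of all tested entries that passed. Traf6, a ubiquitin ligase used by both IL-18 and IL-17 receptors, changed by −0.75 ± 0.096 SE (limma adjusted p = 9.36e-05), and Map3k7, the kinase TAK1, by 0.52 ± 0.092 (9.78e-04). Irak4 changed by −0.54 ± 0.16 (0.0210), and that call ended without itaconate replicate 1 (0.0625), NaCl replicate 1 (0.0705) or NaCl replicate 2 (0.0566). Tab2, at −0.23 ± 0.084 (0.0490), missed the threshold in 10 of 17 alternatives, 5 of which left out a library: itaconate replicate 1 (0.0897), itaconate replicate 2 (0.103), itaconate replicate 3 (0.0966), NaCl replicate 1 (0.111) or NaCl replicate 2 (0.164). Myd88 itself was at 0.02 ± 0.12 and Traf3ip2, which encodes Act1, at 0.15 ± 0.12, and neither passed.

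Il17ra, the common chain of the receptors for IL-17A, IL-17F and IL-25, rose. The gene lies at chr6:120463247-120487559 (plus strand). It was at 1934, 2098 and 2129 in NaCl and at 2809.6, 2812 and 3155 with itaconate. All itaconate libraries exceeded the controls, with little spread in either group (2053 ± 105 and 2926 ± 199, SD, n = 3). The rise was 1.42-fold on the scale of the fit (log2 difference 0.51 ± 0.090 SE, limma adjusted p = 8.79e-04). Il17rc, its partner for IL-17A and IL-17F, was at 0 to 5.10 in every library, and the IL-25 chain gene Il17rb at 0 to 12.7, both under the filter. The ligand genes Il17a (24.3, 88.1 and 49.3 with itaconate, 22.4, 23.1 and 30.0 in NaCl) and Il17f did not pass (limma adjusted p = 0.144 and 0.794). Without itaconate replicate 1, Il17a passed (log2 difference 1.37, adjusted p = 0.0262).

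Ifngr1, the ligand-binding chain of the interferon gamma receptor, rose by a similar amount but varied more between libraries. The gene lies at chr10:19591949-19610229 (plus strand). Its counts were 1960.1, 2274 and 2081 in NaCl and 2448, 3239 and 3732 with itaconate. The groups did not overlap, though itaconate replicate 1 lay much nearer to the controls than the other itaconate libraries. The log2 difference was 0.56 ± 0.13 SE (1.47-fold, limma adjusted p = 0.0060), and the call ended without the intensity trend (adjusted p = 0.0621). Ifngr2, the signalling chain, did not pass (913.5 ± 117 and 1055 ± 54.5, log2 difference 0.21 ± 0.12 SE, adjusted p = 0.171). The Ifngr1 to Ifngr2 log2 ratio was 1.21 ± 0.16 in NaCl and 1.55 ± 0.35 with itaconate (SD, n = 3; exact permutation p = 0.2). Ifng, the ligand gene, was at 261, 153 and 88.0 in NaCl and 130.0, 73.0 and 122 with itaconate, and did not pass (−0.53 ± 0.35 SE, limma adjusted p = 0.262).

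The IL-10 receptor ligand-binding chain fell. Il10ra, through which IL-10 restrains T cells, lies at chr9:45253837-45269149 (minus strand). It was at 2432, 2937 and 2482 in NaCl and 1808, 2004 and 1822 with itaconate. No itaconate library reached the lowest control. The log2 difference was −0.47 ± 0.099 SE (1.39-fold lower, limma adjusted p = 0.00264), and the adjusted p ran up to 0.0285 over the alternatives. Il10rb, the shared second chain, did not pass (1000.2 ± 47.0 and 877 ± 126, log2 difference −0.20 ± 0.12 SE, adjusted p = 0.219). Il10 itself fell from 149.9, 207 and 172 to 7.48, 23.6 and 30.8, 9.36-fold on the scale of the fit (log2 difference −3.23 ± 0.43 SE, limma adjusted p = 1.29e-04).

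Among the receptors that use the common gamma chain, Il21r, Il9r and Il15ra fell. Il21r, which reads the follicular helper cytokine IL-21 and is known to be induced by activation, was the most abundant of the 10 genes per length. The gene lies at chr7:125603429-125633570 (plus strand). It was at 9435, 11359.5 and 12588 in NaCl and 6579.8, 6821 and 9411 with itaconate. Itaconate replicate 3 lay only just under the lowest control, so the groups came close to overlapping. The log2 difference was −0.56 ± 0.14 SE (1.47-fold lower, limma adjusted p = 0.00685), a call that ended without the intensity trend (0.0730). Over the alternatives the log2 difference ran from −0.72, without itaconate replicate 3, to −0.42, with quantile scaling.

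Il9r, the IL-9 receptor chain, had the largest fall of the 10. The gene lies at chr11:32187541-32200279 (minus strand). Its counts were 88.7, 89.4 and 98.9 in NaCl and 16.8, 46.2 and 38.0 with itaconate. The controls lay close together and the itaconate libraries spread more widely, with replicate 1 lowest. The log2 difference was −1.54 ± 0.37 SE (2.91-fold lower, limma adjusted p = 0.00602), from 18 to 109 estimated reads per library. Without itaconate replicate 1 it was −1.12 (adjusted p = 0.0133). The ligand gene Il9 was at 1.02, 14.1 and 5.45 in NaCl and listed at 0 in all 3 itaconate libraries, under the filter.

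Il15ra binds IL-15 and can present it to neighbouring cells. The gene lies at chr2:11705290-11734317 (plus strand). It was at 517, 562 and 412 in NaCl and 328, 341 and 312 with itaconate. The itaconate libraries all lay under the controls and were the less variable group. The log2 difference was −0.59 ± 0.15 SE (1.51-fold lower, limma adjusted p = 0.00736). Il2rb, the IL-15 and IL-2 receptor beta chain, fell as well (−0.71 ± 0.13, adjusted p = 0.00107). The log2 ratio of Il15ra to Il2rb was −5.67 ± 0.39 in NaCl and −5.55 ± 0.27 with itaconate (SD, n = 3; exact permutation p = 0.6). Il2rg, the common gamma chain itself, did not pass (8230.0 ± 505 and 7947 ± 660.3, log2 difference −0.05 ± 0.089 SE, 95% interval −0.24 to 0.14).

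Il21r and Il15ra each have another receptor gene as their immediate neighbour. Il4ra, the IL-4 receptor chain gene before Il21r on chromosome 7, went from 12000.1 ± 1195 to 6766 ± 2086 (SD, n = 3; log2 difference −0.86 ± 0.16 SE, limma adjusted p = 0.00143). Il2ra lies before Il15ra on chromosome 2 and fell by 1.18 ± 0.14 on the log2 scale. Beside Ifngr1 on chromosome 10 lie Il22ra2 and Il20ra, which were at 0 to 2.72 in every library. The Il21 ligand gene fell by 2.20 ± 0.23 on the log2 scale, from 3939, 4721 and 4841 to 702, 815 and 1619 (limma adjusted p = 2.26e-05).

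The 2 receptors that pair with gp130 did not pass. Il6ra, the IL-6 binding chain known to mark naive and resting T cells, lies at chr3:89864059-89913196 (minus strand). It was at 1375, 1452 and 1650.0 in NaCl and 1102, 1378 and 1610.4 with itaconate. The groups overlapped widely (log2 difference −0.14 ± 0.13 SE, 95% interval −0.43 to 0.15, limma adjusted p = 0.432). Over the alternatives its log2 difference ran from −0.27 to 0.0020. Il27ra, the IL-27 binding chain, lies at chr8:84030294-84042589 (minus strand). It was at 1773, 1632 and 1866 in NaCl and 1667, 1443 and 1509 with itaconate. The values overlapped in itaconate replicate 1 alone (−0.19 ± 0.098 SE, 95% interval −0.40 to 0.02, adjusted p = 0.147). Il6st, their partner gp130, rose from 1340.0, 1652 and 1454 to 1950.1, 2625 and 1910.1 (log2 difference 0.53 ± 0.13 SE, limma adjusted p = 0.00626). That call ended without the intensity trend (0.0572).

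The Il6ra to Il6st log2 ratio accordingly lay at 0.011 ± 0.19 in NaCl and −0.67 ± 0.37 with itaconate (SD, n = 3), and that of Il27ra to Il6st at 0.25 ± 0.23 and −0.48 ± 0.34. Each ratio had an exact permutation p of 0.1. In all, 8 of the 9 pairs planned had a value, and the smallest p adjusted over them was 0.133. Il6 fell from 68.3, 39.2 and 28.1 to 4.68, 16.1 and 15.4 (log2 difference −1.89 ± 0.55 SE, limma adjusted p = 0.0177). That call ended without itaconate replicate 1 (0.0503), NaCl replicate 1 (0.0909) or NaCl replicate 2 (0.0507). Il27 was at 0 to 10.2 and under the filter, and Ebi3, the other IL-27 subunit, fell by 1.72 ± 0.13 on the log2 scale (adjusted p = 2.67e-06). Among the genes that shed the IL-6 receptor, Rhbdf2, a cofactor of the protease ADAM17, rose by 0.40 ± 0.12 (adjusted p = 0.0179). The Rhbdf2 call ended without itaconate replicate 3 (0.0503), NaCl replicate 1 (0.0708) or NaCl replicate 2 (0.0525), and without the intensity trend (0.0507). Adam17 (−0.09 ± 0.097) and Adam10 (0.14 ± 0.09) did not pass.

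The exons of Il6ra share 242 bases with an antisense gene, Gm42809, which fell (46.2 ± 16.3 to 8.91 ± 2.83, SD, n = 3; log2 difference −2.23 ± 0.49 SE, limma adjusted p = 0.00359). The strand setting of the counting is not given in the sources used here, so reads in that stretch cannot be told apart. For the 10 receptor genes, between 0% and 3.17% of the 31-base words of their transcripts also occurred in transcripts of other genes, Il6ra with the highest share.

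**Figure D3:**
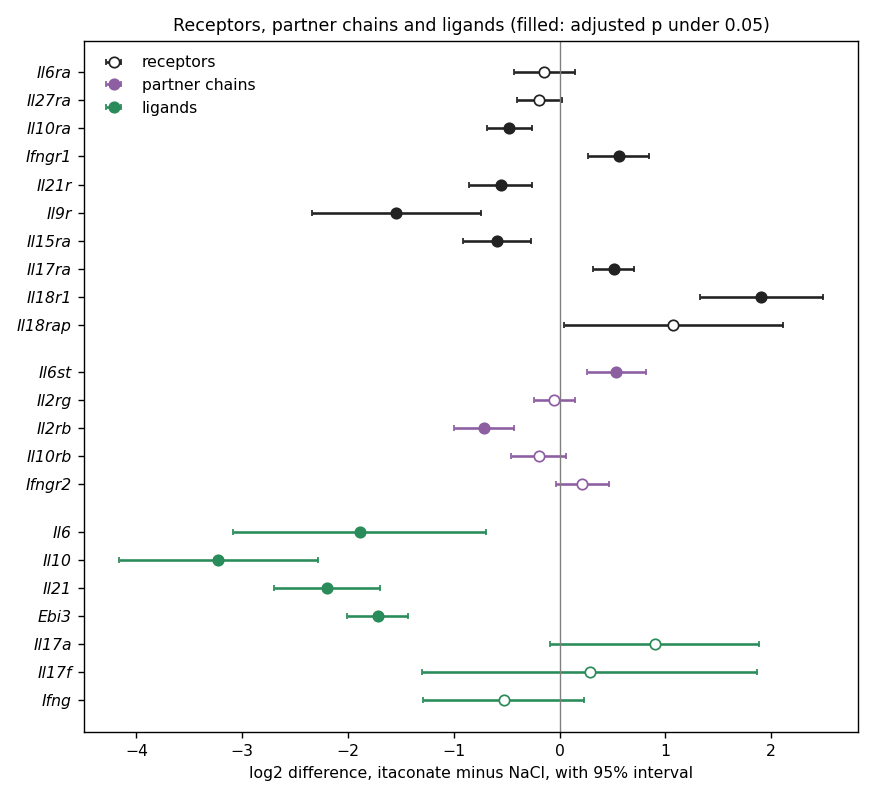
Log2 difference, itaconate minus NaCl (horizontal axis), with its 95% interval in limma, for the receptor genes, their partner chains and their ligands that passed the filter. Filled points passed the test. The receptor genes run from −1.54 (Il9r) to 1.91 (Il18r1), and the ligand genes that passed are all below −1.7.

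For the list counts that follow, the shares over all tested entries were 18.2% higher and 17.8% lower. Of the 7 ligand genes that passed the filter, 4 fell (Il6, Il10, Il21 and Ebi3) and none rose. Of the 5 partner chains, Il6st rose and Il2rb fell. The JAK and STAT genes had 1 member higher and 5 lower of 11. Stat3, the main STAT of the IL-6, IL-10, IL-21 and IL-27 receptors, changed by −0.67 ± 0.086 SE (limma adjusted p = 9.45e-05), Jak2, which serves the interferon gamma receptor, by −0.64 ± 0.10 and Stat5a by −0.63 ± 0.10. Stat4 rose by 0.54 ± 0.14 (adjusted p = 0.0103), a call that ended without itaconate replicate 2 (0.0558) and without the intensity trend (0.0795). Among 16 feedback inhibitors 6 rose and 3 fell. Pias3, an inhibitor of STAT3, rose by 0.86 ± 0.12 (adjusted p = 1.51e-04) and Pias1 by 0.40 ± 0.096. Cish, a SOCS family gene induced by STAT5, changed by −0.53 ± 0.11 and Usp18, which restrains the type I interferon receptor, by −0.99 ± 0.16.

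In the wider family of 48 other cytokine receptor genes, 28 passed the filter. Of these, 4 rose, 10 fell and the test was missed by 14 (median log2 difference −0.31), where 18.2% of all tested entries rose and 17.8% fell. This list includes Il6st and Il2rb. Its 4 rises, named after their values were seen, were Il6st, Il11ra1 (0.76 ± 0.19 SE), Ifnar1 (0.53 ± 0.087) and Ifnar2 (0.28 ± 0.092, limma adjusted p = 0.0297). The Ifnar2 call ended without itaconate replicate 2 (0.112), NaCl replicate 1 (0.0854), NaCl replicate 2 (0.0559) or NaCl replicate 3 (0.0637). The type I interferon receptor genes Ifnar1 and Ifnar2 moved in the direction of Ifngr1. The genes of the IL-12 receptor, whose cytokine acts with IL-18 on Th1 cells, moved the other way from Il18r1. Il12rb2, its signalling chain, went from 12608 ± 1253 to 6389.7 ± 1442 (SD, n = 3; 95% interval of the log2 difference −1.30 to −0.70, limma adjusted p = 1.46e-04), and Il12rb1 changed by −1.05 ± 0.10.

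Per kilobase of merged exons, the 10 genes spanned a wide range of levels. In NaCl the order was Il21r (3348 ± 478 normalized estimated counts per kb, SD, n = 3), Il10ra (748 ± 79.6), Ifngr1 (739 ± 55.7), Il27ra (503 ± 33.7), Il17ra (237 ± 12.1), Il6ra (173 ± 16.4), Il15ra (112 ± 17.3), Il9r (18.7 ± 1.15), Il18r1 (8.10 ± 1.64) and Il18rap (1.83 ± 0.22). Only Il10ra and Ifngr1 overlapped in that order. With itaconate, Ifngr1 (1103 ± 228) stood above Il10ra (537 ± 31.3), and Il18r1 (30.8 ± 5.14) above Il9r (6.81 ± 3.06). Il9r then overlapped with Il18rap (4.13 ± 1.20).

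**Figure D4:**
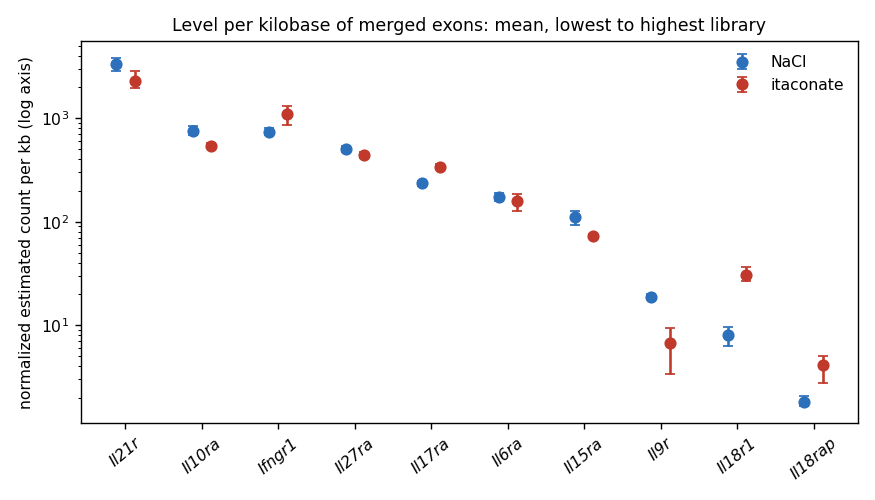
Normalized estimated count per kilobase of merged exons (vertical log axis) for each receptor gene, ordered by its NaCl mean. Points are group means and bars run from the lowest to the highest of 3 libraries. Il18r1 and Il9r change places between the groups, as do Ifngr1 and Il10ra.

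The itaconate libraries did not deviate evenly from the NaCl mean. For Il18r1, Il18rap, Il17ra and Ifngr1 replicate 3 was the highest, with log2 deviations of 2.17, 1.39, 0.62 and 0.83, and replicate 1 the lowest, with 1.73, 0.57, 0.45 and 0.22. For Il21r replicate 3 was nearest to the NaCl mean (−0.23, against −0.75 and −0.70 in replicates 1 and 2), and for Il6ra it lay above it (0.11, against −0.43 and −0.11). Il9r deviated most in replicate 1 (−2.39, against −0.98 and −1.26). Among the NaCl libraries replicate 1 was also the lowest for Il18r1 (−0.32), Il18rap (−0.12), Il17ra (−0.085) and Ifngr1 (−0.10). It was lowest for Il21r (−0.23), Il6ra (−0.11) and Il9r (−0.055) too. NaCl replicate 3 was the highest control for Il18r1 (0.26), Il17ra (0.053), Il21r (0.19), Il6ra (0.15) and Il9r (0.10). For Il18rap (0.18) and Ifngr1 (0.11) the highest control was NaCl replicate 2. The remaining genes did not all have this order. Il15ra was lowest in replicate 3 of both groups (−0.66 with itaconate, −0.26 in NaCl). Il27ra was highest in itaconate replicate 1 (−0.074), with NaCl replicate 2 the lowest control (−0.10) and NaCl replicate 3 the highest (0.089). Il10ra was lowest in replicate 1 of both groups (−0.53 and −0.10) and highest in replicate 2 (−0.38 and 0.17). The labels give no batch or date that could be set beside this spread.

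**Figure D5:**
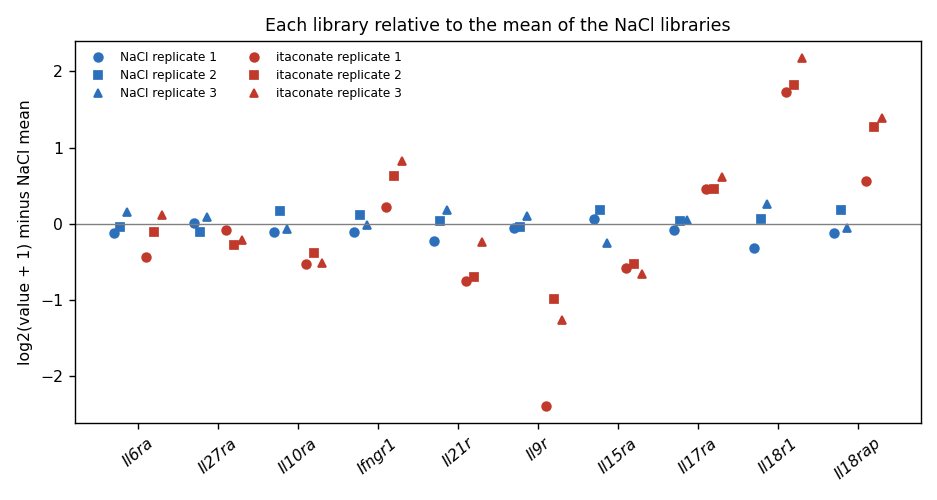
Log2(value + 1) of each library minus the mean of the NaCl libraries (vertical axis), for each receptor gene. Blue marks NaCl and red itaconate, and the symbol marks the replicate number. For Il18r1 all itaconate points lie between 1.73 and 2.17, while for Il9r they spread from −2.39 to −0.98.

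As a check of the labels, all 10 T cell markers were present. Of them 2 rose and 3 fell, where 18.2% of all tested entries rose and 17.8% fell. Cd4 was at 8559 to 10191 in NaCl and 13094.5 to 13962 with itaconate. It rose (log2 difference 0.51 ± 0.087 SE, limma adjusted p = 7.24e-04). The other CD4 T cell markers, Zbtb7b (−0.15 ± 0.083 SE) and Cd40lg (0.07 ± 0.17 SE), did not pass. Over all libraries Cd8a was at 28.1 to 68.3 and Cd8b1, the other CD8 marker, at 274 to 369. Neither CD8 marker passed. Estimated reads ran from 20074299 to 24144999 per library. Several of the 10 receptors are also made by other cells of the spleen. Of 11 macrophage and monocyte markers, 8 stayed under 20 in every library, Lyz2, Csf1r and Adgre1 among them, as did 6 of 7 neutrophil and 5 of 8 dendritic cell markers. The neutrophil list summed to 15.9 to 30.8 with itaconate and 34.2 to 64.4 in NaCl, and no member passed. The CD8 list summed to 308 to 365 and 363 to 408, and the red blood cell list to at most 3.74. 

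Within the macrophage, B cell and NK cell lists, members moved in opposite directions. The macrophage and monocyte list summed to 193 to 260.1 with itaconate and 239.8 to 281 in NaCl. In it Itgam, an integrin chain, rose from 11.2, 7.03 and 24.5 in NaCl to 39.3, 70.1 and 67.7 (log2 difference 2.10 ± 0.49 SE, limma adjusted p = 0.00524), Cd68, a lysosomal protein gene, rose by 0.92 ± 0.31 (0.0319), and Ly6c2 fell from 181, 165 and 189 to 60.9, 79.0 and 30.8 (−1.73 ± 0.31, 0.00102). The B cell list summed to 1993 to 2129 and 1353 to 1657. Most of that sum was Ighm, the IgM heavy chain gene, which rose (1053 ± 96.5 to 1708 ± 67.3, SD, n = 3). Ebf1, a B cell transcription factor, fell by 1.24 ± 0.38 on the log2 scale (adjusted p = 0.0230), and the other 7 tested members did not pass. The NK cell list summed to 312 to 849.8 and 1317 to 1764. Gzma, a granzyme gene, fell (1478 ± 276 to 387 ± 272; −2.29 ± 0.49, adjusted p = 0.00299), and Eomes, a transcription factor of NK and memory T cells, rose (111 ± 16.0 to 214 ± 19.2; 0.95 ± 0.19, 0.00240). In itaconate replicate 1 Eomes (202) made up more of the sum than Gzma (96.3), and without that library the Gzma difference was −1.48. Ncr1 was at 0 to 2.04 and Klre1 at 0 throughout. The dendritic cell list summed to 139 to 184 and 98.9 to 131, and in it Zbtb46 rose by 0.77 ± 0.25 (adjusted p = 0.0324).

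Several of these marker calls depended on single libraries. The Cd68 call ended without itaconate replicate 1 (0.143), itaconate replicate 2 (0.0631), NaCl replicate 1 (0.110) or NaCl replicate 3 (0.0520). The Ebf1 call ended without itaconate replicate 1 (0.0768), NaCl replicate 2 (0.0692) or NaCl replicate 3 (0.104), and that of Zbtb46 without itaconate replicate 1 (0.0874), itaconate replicate 2 (0.0957) or NaCl replicate 3 (0.127). The part of these marker lists in the receptor results was not tested.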

How the data were processed

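RNA-seq of 6 libraries was used, 3 with itaconate and 3 with NaCl, grouped by their titles. The authors deposited 1 table with a row for each gene symbol. Its expression signal was made by the authors by estimating counts per gene and scaling them per library, per the title of the table and the submitters' processing notes. According to the submitters' processing notes, mm10, STAR 2.7.0f and RSEM 1.3.0 were used. Not given in the sources used here: annotation, strand setting, filters and the tool behind the size factors. Within 0.0005 reads, every value above 0 equals some hundredths of a read over a library factor, from which estimated reads were computed; 79.9% to 82.2% were whole reads within 0.02 reads, so count models were not used. Each value is thus relative, within its library, to the rest of the transcriptome.

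Entries with a mean of at least 10 (13180 of 55401) were fitted as log2(value + 1) in limma 3.58.1 (R 4.3.3). The model held the group alone and an intensity trend for the variances; two-sided p-values were adjusted over all tested entries by Benjamini-Hochberg, with a threshold of 0.05. The 1 added to each value shrinks the fold of low genes. A fold from mean logs can still lie on either side of the ratio of the group means. It was 3.75 against 3.80 for the rise of Il18r1, and 2.91 against 2.74 for the fall of Il9r. The entry with the highest mean kept a symbol held by several entries (107 symbols). The fit was also run on simulated libraries drawn independently, with known changes in a smaller share of genes than passed here. No conclusion is drawn from that run. Pairs of receptor chains were compared as within-library log2 ratios with an exact two-sided permutation test. Positions, exon lengths and neighbours came from GENCODE M21 (mm10), and promoters from RefSeq (GRCm38.p6), which held 7 of the 10 genes. Protein sequences were not analysed here, and some items are not reported here.

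The receptor genes and all lists were chosen with earlier results of these data known. Named were all 10 receptors, the measured partner chains and ligands, receptor genes neighbouring a member, up to 4 genes with the smallest p of each other list, and the 3 genes most like the largest rise and the largest fall; 15 further genes were named after their values were seen (Il11ra1, Ifnar1, Ifnar2, Myd88, Traf3ip2, Gm42809, Cd4 and the markers that moved). The alternatives were pseudocounts of 0.1 and 10, no filter, a mean of at least 100, median-ratio, TMM and quantile scaling, the replicate number as a block, no intensity trend, robust variances and each library left out; voom on estimated reads was chosen after seeing the data. Libraries of 1 group differed by more than sampling noise (chi-square over its degrees of freedom, from estimated reads, 12.1 to 23.8). With 3 libraries a group, and 11 to 33 estimated reads for the rarest member, precision was lowest for Il18rap and Il9r.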

Additional observations from a re-analysis of the deposited data

How the results depend on the processing

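Of the 10 receptor genes, 7 kept their side of the threshold in all alternatives that could be run. The other 3 changed only without the intensity trend: Ifngr1 and Il21r no longer passed and Il18rap did. A mean of at least 100 left Il18r1, Il18rap and Il9r untested, so 2 genes rose and 3 fell. With each library left out in turn, 3 receptor genes rose and 4 fell every time. Of 1309 repeats for 78 named genes, 48 no longer passed and 2 newly passed. The sign changed in 14, for 7 genes (Il6ra, Il2rg, Il17f, Il1rn, Il1rl1, Il1r1 and Myd88), none of which passed with either sign. Without the intensity trend, the other cytokine receptors that rose numbered 2 in place of 4: Il6st and Ifnar2 missed the threshold. The cause was not tested. The groups share replicate numbers that the labels tie to no mouse or day. For lack of such a tie, the numbers were not taken as pairs in the main fit. Deviations of same-numbered libraries correlated at 0.15, 0.038 and 0.13, and each library correlated best with its own number. These values are low but all above those of other numbers, so they do not decide whether the numbers mark pairs. With the replicate block, 3 receptor genes rose and 4 fell, all genes that rose numbered 2855 (2400 without it) and all genes that fell 2781 (2341). The block left the log2 differences as they were but lowered the limma adjusted p of all 10 receptor genes. It went from 0.00685 to 1.31e-04 for Il21r and from 0.0060 to 7.16e-04 for Ifngr1. Depth limits Il18rap, Il9r and the rare ligands most.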

Other observations

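Of 13 genes known to be induced through STAT3, 3 rose and 6 fell (limma adjusted p under 0.05, median log2 difference −0.43). The shares over all tested entries were 18.2% higher and 17.8% lower. Prdm1, which encodes Blimp-1, went from 464, 599.7 and 556 to 77.6, 139 and 145 (log2 difference −2.20 ± 0.23 SE, adjusted p = 2.03e-05).

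Of 12 genes of naive T cells 6 rose and 3 fell (median log2 difference 0.23), with Klf2, a factor of T cell trafficking, at 1.32 ± 0.24 SE, Ccr7 at 0.70 ± 0.10 and Satb1 at −0.72 ± 0.13. Of 14 activation genes 2 rose and 8 fell (median −0.49), with Tnfrsf9, which encodes 4-1BB, at −1.44 ± 0.12 and Cd44 at 1.21 ± 0.16. Beside the counts of both lists, 18.2% of all tested entries rose and 17.8% fell.  Over the 6 libraries, the genes whose log2 values followed Il18r1 most closely were Selenop (Pearson r = 0.998), Abca2 (0.997) and Pou6f1 (0.997), and those closest to Il9r were Hpse (0.994), Dhdh (0.989) and Fam171b (0.987). With 6 points in 2 groups such values describe mainly the difference between the groups.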
